A study of Sus scrofa with 20 samples.

Results

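Longissimus muscle of 2 pig breeds, Landrace (LR) and Lantang (LT), was compared at 2, 28 and 90 days post natum (dpn). These 6 libraries, 3 per breed, were taken from a series of 20 that also covers 35 to 91 days post coitus (dpc) and 120 and 180 dpn in both breeds. LR is a lean, fast-growing breed and LT an obese, slow-growing one, and the animals were purebred males without any other treatment. According to the methods, the males were castrated from 2 weeks of age, so those sampled at 2 dpn were intact. Each library was made from 1 pool that held equal amounts of RNA from 3 animals of a breed and stage. No breed and stage was therefore replicated, and the 3 stages stood in for replicates. The p-values measure how much the breed difference varied between these 3 stage pairs, not the spread between animals. The pairs at 120 and 180 dpn were left out by rule, because only 0.116% and 0.224% of the clean tags of their LR libraries held a further CATG, against 2.14 to 2.98% in the 6 libraries used.

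Digital gene expression (DGE) profiling counts short tags instead of whole transcripts. The restriction enzyme NlaIII cuts cDNA at CATG, and the tag is that site with the 17 bases that follow, 21 bases in all, so a transcript is seen through the bases next to one of its CATG sites. A transcript of 2 breeds that carries a different base within this stretch is counted as 2 different tags, and one that has lost the CATG is counted at another site or not at all. In such a table a transcript made in only 1 breed and a tag sequence carried by only 1 breed cannot be told apart, and in whole muscle fewer cells of a type and less RNA per cell cannot be told apart either. The tags were not matched to genes, because transcript sequences were not used here, so the values are values of tags and the muscle could not be checked against marker genes. The 6 libraries held 2157111 to 5127896 clean tags, with the 3 LT libraries (3953120 or more) deeper than the 3 LR libraries (3116426 or fewer), and 74054 to 203377 distinct tags. The floor for a detected tag, 3 counts, stood for 0.585 to 1.39 TPM (tags per 1000000 clean tags of the library). Tags seen once had been removed by the authors, so a tag that is not listed had 0 or 1 copies.

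The tags with the largest differences or highest levels that were still called when tags 1 base apart had been merged are shown first, because the comparison turns on them. LR1 to LR7 were found in the LR libraries and LT1 to LT8 in the LT libraries, numbered by fold change. The capitals mark the NlaIII site, and each tag reads 5′ to 3′.
LR1: CATGgggaggagcaggtgaag
LR2: CATGaaacaaaatacccgtca
LR3: CATGgccctagccataaaact
LR4: CATGagcagtttaaaagaacc
LR5: CATGaggacttcagagcctgc
LR6: CATGtaacaataaagtctgtt
LR7: CATGtgtaacacactgcaaat
LT1: CATGagaacctcaagggtgga
LT2: CATGacaaatactaccagagc
LT3: CATGgcttgtatgagaagaaa
LT4: CATGtgttttaagcaaaatgg
LT5: CATGttgtatttaggggtcta
LT6: CATGtgcgtgtgcgtgtgtgt
LT7: CATGgggagaatatgtaaagt
LT8: CATGtgaaagacgctatgtga

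Most of the tags called between the breeds in young muscle were listed in one breed and not in the other. Of 402488 distinct tags in the 6 libraries, 27369 passed the low-count filter and 441 (1.61%) were called at an adjusted p below 0.05 by the quasi-likelihood test of edgeR, in which the stage was a block. Of these, 238 (0.870% of the tags tested) were higher in LR and 203 (0.742%) were higher in LT. In 381 of the 441 (86.4%) the 3 libraries of the other breed held no copy, 196 of them found in LR and 185 in LT. Only 251 (0.917%) of all tags tested were unlisted in the 3 LT libraries and 269 (0.983%) in the 3 LR libraries. The remaining 60 called tags, 42 higher in LR and 18 higher in LT, were listed in both breeds, and 15 of the 441 had at least 3 counts in all 6 libraries. All 441 differed in the same direction at the 3 stages, against 26.8% of all tags tested, and in 438 the values of the breeds did not overlap, against 8.67% (4.42% with every LR library above every LT library and 4.26% the other way). The call itself asks for such agreement. The smallest fold change called was 2.86 on the log2 scale, and smaller differences between the breeds may have been missed. Without the 28 dpn pair no tag was called by edgeR, with 994 at an unadjusted p below 0.05 in place of 1706, and without the 90 dpn pair 774 were called.

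**Figure D1:**
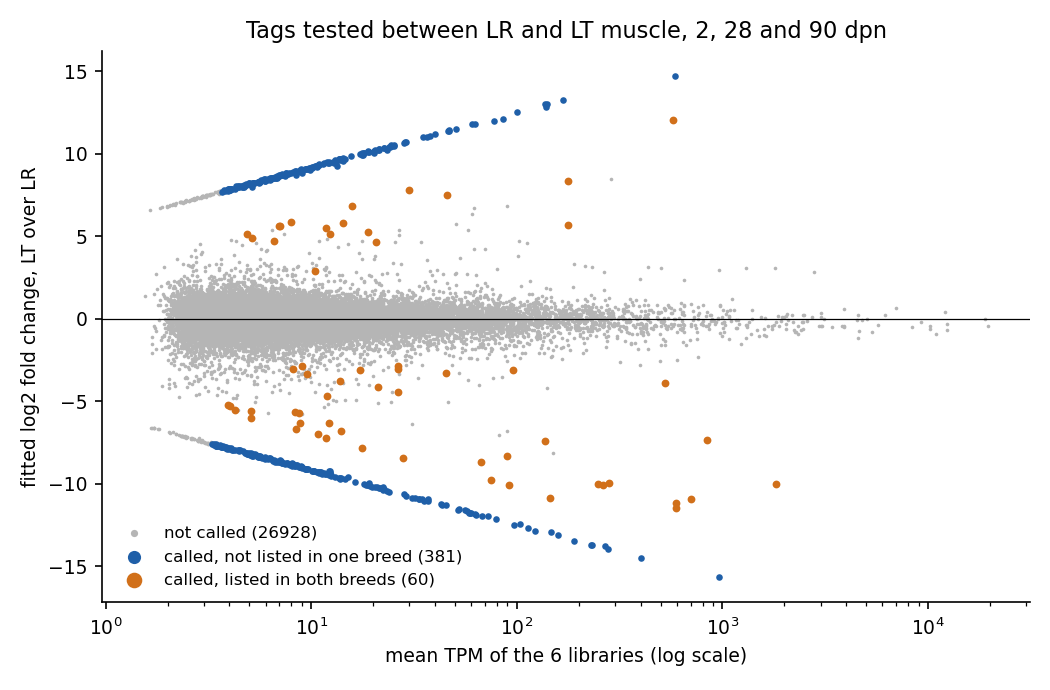
Fitted log2 fold change (LT over LR) of the 27369 tags tested, against the mean TPM of the 6 libraries on a log axis, each point 1 tag. The 381 called tags that one breed did not list (blue) form the outer bands, where the fitted fold depends on the prior count, the 60 called tags listed in both breeds (orange) lie within, and the other tags centre on 0.

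Among the 7 named LR tags, LR1 was the most abundant. In LR it had 1288 counts at 2 dpn, then 8920 at 28 dpn and 4975 at 90 dpn, with none in the 3 LT libraries. The LR values were 413, 3066 and 2306 TPM, so the tag was lowest in the youngest pool and highest at 28 dpn. Its mean of 1929 TPM ± 1366 (SD, n = 3) was at least 2860-fold higher in LR, with the LT libraries set at 3 counts each (edgeR adjusted p = 0.0151). LR2 had 1178, 2754 and 720 counts in LR at 2, 28 and 90 dpn, or 553 TPM ± 342 (SD, n = 3), and LR3 had 1019, 2593 and 386. LR4 followed with 398, 1219 and 290 counts. LR2, LR3 and LR4 were thus all highest at 28 dpn, and none of the 3 was listed in LT, which makes them at least 820-fold, 691-fold and 337-fold higher in LR. LR5 and LR6 went the other way over the stages, with 968, 578 and 157 counts for LR5 and 688, 226 and 170 for LR6. LR7 had 985 counts at 2 dpn but 28 at 28 dpn and 39 at 90 dpn. LR5, LR6 and LR7 were therefore highest in the newborn, and LR7 was the one whose SD exceeded its mean, with 115 TPM ± 175 (SD, n = 3). Each of the 7 had an edgeR adjusted p of 0.0151 or 0.0153.

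Among the 8 named LT tags, LT1 had the highest mean, mostly through the 90 dpn pool. It had 232, 1606 and 12574 counts in LT at 2, 28 and 90 dpn and none in the LR libraries, which is 52.5, 313 and 3181 TPM. The mean of 1182 TPM ± 1736 (SD, n = 3) was at least 1048-fold higher in LT (edgeR adjusted p = 0.0151), with an SD above the mean. LT2 had 943, 2093 and 855 counts, with 28 dpn highest, or 279 TPM ± 112 (SD, n = 3). LT3 had 215, 1266 and 309 counts and LT6 had 100, 506 and 190, also highest at 28 dpn. LT4 had 749, 422 and 106 counts and LT5 had 411, 307 and 78, both highest at 2 dpn. LT7 (114, 328 and 150 counts) and LT8 (248, 253 and 66 counts) were the lowest of the 8, at least 37.7-fold and 36.1-fold higher in LT. No LR library listed any of the 8, and their edgeR adjusted p ranged from 0.0151 to 0.0164. LT6 fell from 10.69 to 5.97 on the log2 scale after one-base merging (edgeR adjusted p = 0.0404). A tag 2 substitutions from LT6 (C7T and C13T) had 176, 303 and 350 counts in LR and 126, 115 and 238 in LT. Together with LT6 it came to 108 TPM in LR and 93.5 TPM in LT.

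**Figure D2:**
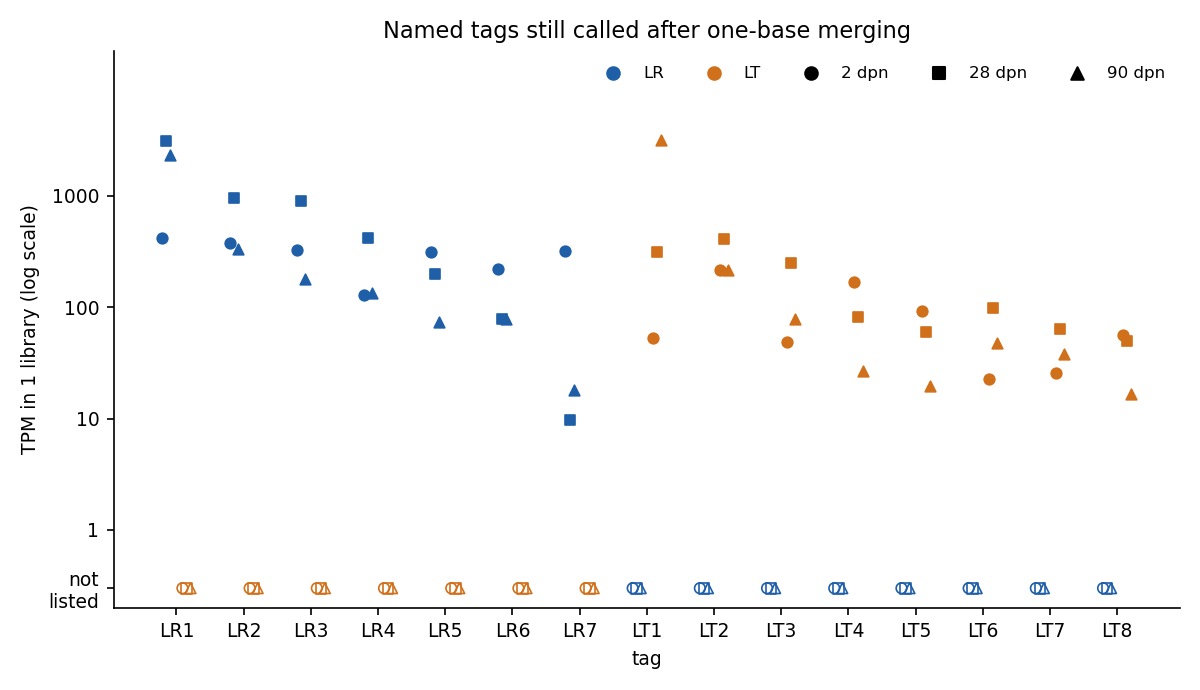
TPM of the 7 LR tags and 8 LT tags in each of the 6 libraries on a log axis (circle 2 dpn, square 28 dpn, triangle 90 dpn; blue LR, orange LT). Open symbols at the bottom are libraries that did not list the tag: all 3 libraries of the other breed for every tag, while LR1 spans 413 to 3066 TPM and LT1 52.5 to 3181 TPM among the libraries that did.

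The called tags took up more of the LR libraries than of the LT libraries. The 238 tags higher in LR together made up 2.12%, 3.19% and 2.32% of the clean tags of LR at 2, 28 and 90 dpn, and 0.00972%, 0.00874% and 0.0348% of those of LT. The 203 tags higher in LT made up 0.817%, 0.976% and 1.04% of the LT libraries, and 0.00327%, 9.63e-04% and 0.00199% of the LR libraries. These shares describe the tags that were chosen by this difference. Most of the LR share, 1.71%, 2.44% and 1.81%, lay in the 153 LR tags that lost their call when one-base neighbours were merged. The LR tags still called after merging made up 0.412%, 0.752% and 0.505% of the LR libraries. The LT tags still called made up 0.193%, 0.248% and 0.454% of the LT libraries, so the breeds were close at 90 dpn. That closeness rested on 1 tag in 1 pool, since LT1 alone held 3181 of the 4540 TPM of these LT tags at 90 dpn. In LR at 90 dpn LR1 held 2306 of the 5049 TPM of the LR tags. Over the stages the tags did not share 1 profile. Of the 85 LR tags that were still called after merging, 35 (41.2%) were highest at 2 dpn, 28 at 28 dpn and 22 at 90 dpn, beside 48.6%, 28.2% and 23.2% of all tags listed in LR. Of the 60 such LT tags, 28 (46.7%) were highest at 2 dpn, 19 at 28 dpn and 13 at 90 dpn, beside 49.4%, 22.2% and 28.4%.

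Most of the calls were lost when tags that differ by 1 base were added together. Each tag was merged into the most abundant tag 1 substitution away, which left 326292 merged tags, of which 26115 were tested. Of these, 146 (0.559%) were called by the same test, 86 (0.329%) higher in LR and 60 (0.230%) higher in LT, and 136 of the 146 were unlisted in one breed. Of all merged tags tested, 6.89% did not overlap between the breeds and 24.8% had 1 direction in the 3 pairs. Without the 28 dpn pair no merged tag was called, with 471 in place of 1110 at an unadjusted p below 0.05, and DESeq2 called 305. Of the 441 tags called singly, 145 (32.9%) lay in a merged tag called in the same direction, 85 of LR and 60 of LT. In 209 of the 296 others the merged log2 fold change was below 1 in size, and 170 of the 296 were not the most abundant tag of their group. In 31 of them the merged fold change was still 5 or more on the log2 scale in the same direction, so that only the adjusted p had moved. The merging is greedy, and 7 of the 145 tags were 1 base from a called tag at least 10 times as abundant, at 0.189% to 0.718% of its count. Of the 7, 2 stood beside LR1, and 5 stood beside a tag that had lost its own call.

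**Figure D3:**
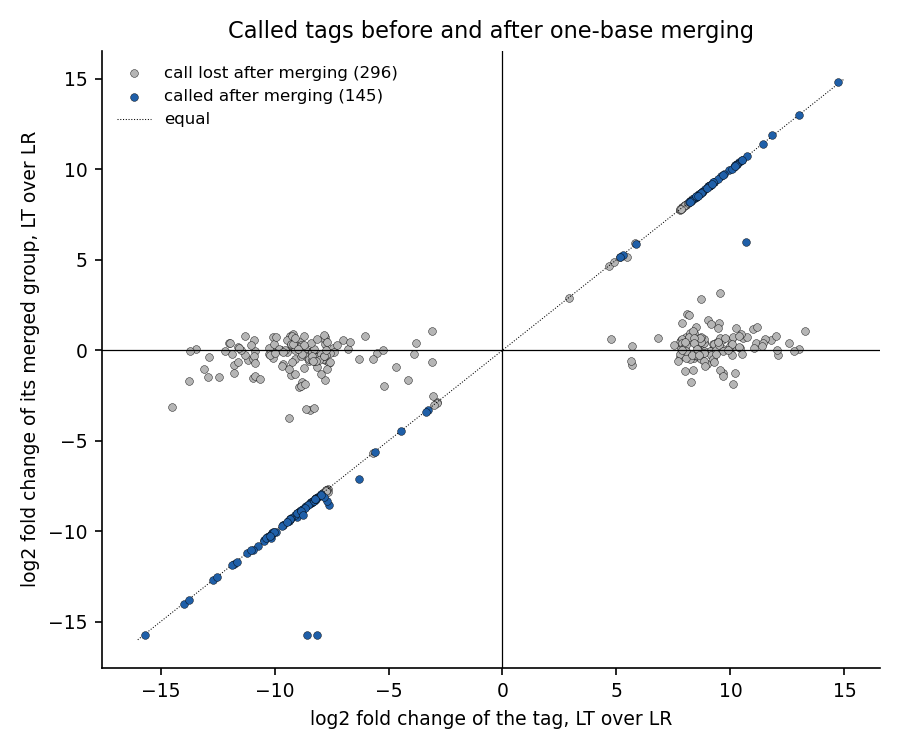
Log2 fold change (LT over LR) of each of the 441 called tags, alone on the horizontal axis and after its one-base neighbours were added on the vertical axis. The 145 tags still called (blue) lie near the dotted line of equal values except for a few, and most of the 296 others (grey) fall to values near 0.

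Many of the tags that lost their call stood opposite a tag of the other breed. Of the 296, 157 (53.0%) had a tag 1 substitution away that differed in the opposite direction, with an unadjusted p below 0.05 and more than 1 on the log2 scale. Among the 145 that were kept there were 3, a contrast that the merging makes by construction, since such a tag is what it adds. Among the 1706 tags with an unadjusted p below 0.05 the share was 18.8%. The called tags formed 124 such opposite pairs, 98 (79.0%) of them by a transition (a change between A and G or between C and T) and 26 by a transversion, and in 36 both tags were called. The share of transitions over all one-base pairs of these libraries was not counted, so 79.0% has no value to stand beside. The pairs below are shown as examples of the patterns described next, with the differing base in capitals. LRv and LTv mark the largest fold changes lost, and P deep pairs picked after their values had been seen, numbered by depth. Positions are counted from 1 at the first base of CATG, and the base of the called tag comes first.
P1: catgagcCgtcccatccctcg
P1, neighbour (C8T): catgagcTgtcccatccctcg
P6: catgcttaCtaaaataaaaac
P2, its neighbour (C9T): catgcttaTtaaaataaaaac
P59: catgatagGggcaatgcatta
P30, its neighbour (G9A): catgatagAggcaatgcatta
P7: catggtggaAcgcagagccaa
P7, neighbour (A10G): catggtggaGcgcagagccaa
LRv1: catgcaaacggagcatccatA
LRv1, neighbour (A21G): catgcaaacggagcatccatG
LRv2: catgtcatccggcaAaatgcg
LRv2, neighbour (A15G): catgtcatccggcaGaatgcg
LRv3: catgatgactaGtagcaagcc
LRv3, neighbour (G12A): catgatgactaAtagcaagcc
LTv1: catgtaaataatttcAatgtc
LTv1, neighbour (A16C): catgtaaataatttcCatgtc
LTv2: catgccatttgtttcTtattt
LTv2, neighbour (T16G): catgccatttgtttcGtattt
LTv3: catgttactagttatcAatct
LTv3, neighbour (A17G): catgttactagttatcGatct

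P1 was the deepest of the lost calls. It had 12694, 14036 and 4480 counts in LR at 2, 28 and 90 dpn and 20, 19 and 8 in LT, and its neighbour had 5065, 3 and 2309 counts in LR and 21251, 35796 and 8830 in LT. Both breeds therefore listed the pair at every stage, and only the LR pools held P1 beyond a trace. LRv1 had 1397, 4042 and 1255 counts in LR and none in LT, and its neighbour had 29, 0 and 43 counts in LR and 193, 668 and 447 in LT. LRv1 and its neighbour together stayed higher in LR, at 816 TPM ± 502 against 95.7 ± 45.8 (SD, n = 3). The merged group of LRv1 had a log2 fold change of -3.11 and an edgeR adjusted p of 0.0882. LRv3 had 1398, 1805 and 648 counts in LR and none in LT, and its neighbour had 647, 0 and 523 in LR and 1525, 5604 and 1982 in LT. The merged LRv3 group did not pass the test, at -0.06 on the log2 scale. LTv1 had 2532, 1370 and 668 counts in LT and none in LR, and its neighbour was itself called with 875, 223 and 340 counts in LR and 137, 47 and 78 in LT (log2 fold change -3.08, edgeR adjusted p = 0.0330). LTv3 had 112, 1251 and 2222 counts in LT and none in LR, and its neighbour had 164, 434 and 1488 in LR and 46, 0 and 0 in LT. After merging LTv3 stood at -0.05, the reverse of its sign alone. LTv2, with 1480, 2299 and 156 counts in LT and none in LR, had a neighbour with 2109, 1122 and 593 counts in LR and 2440, 832 and 470 in LT.

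In 61 cases both the called tag and its most abundant one-base neighbour had at least 500 counts in the 6 libraries, 40 with the called tag in LR and 21 in LT, and each of the 61 lost its call after merging. In these pairs the share of the called tag among both tags describes the makeup of the pair apart from its level. In 37 of the 40 LR cases the share was at or below 1% in the 3 LT libraries, and in 18 of the 21 LT cases it was at or below 1% in the 3 LR libraries. A tag called higher in one breed is low in the other by the call itself, so these low shares were largely fixed in advance. The same shares over all deep one-base pairs were not counted. In the breed of the called tag the share was at least 99% in all 3 libraries in 7 of the 40 and 6 of the 21. In the other cases at least 1 of the 3 pools held the neighbour at more than 1% of the pair. A pair with both tags called, such as P6 and P2, stands in both the 40 and the 21. Complete alternation over all 20 libraries was found in 2 pairs. P6 made up 99.9% or more of its pair in the 10 LR libraries and 0.0395% or less in the 10 LT libraries, with 629, 1704 and 5967 counts in LR where P2 had 609, 8689 and 6455 in LT at 2, 28 and 90 dpn. P59 made up 100% in the 10 LR libraries and at most 0.252% in the 10 LT libraries. In P7 and LRv2 the share differed between stages. P7 made up 0.743%, 21.6% and 51.9% of its pair in LR at 2, 28 and 90 dpn and 0.0606%, 0.681% and 9.04% in LT. LRv2 made up 20.3%, 61.1% and 53.0% of its pair in LR and was not listed in LT.

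In 13 of the 40 LR pairs, P1, LRv1 and LRv3 among them, the share of the called tag followed a similar course over the LR libraries. These were picked after their values were seen, as pairs with at most 1% at 77 dpc and at least 99% at 28 and 180 dpn in LR. At 2 dpn the 13 shares ran from 60.2% to 98.0% with a median of 71.5%, and at 90 dpn from 44.9% to 96.7% with a median of 70.9%. At the stages that were not used to pick them, the median share was 92.5% at 35 dpc, 22.4% at 49 dpc, 61.8% at 63 dpc, 45.7% at 91 dpc and 56.1% at 120 dpn, where 1 pair was not listed. LRv1 was the highest of the 13 at 2 dpn with 98.0% and at 90 dpn with 96.7%. In LT the 13 shares were at or below 0.957% in every library. LR2, LR3 and LR4, which had no opposite neighbour, were likewise not listed in LR at 77 dpc, although the LR libraries at 63 dpc (695, 304 and 127 counts) and 91 dpc (495, 302 and 155 counts) held them. Of the 238 called tags higher in LR, 44 were unlisted in that library. The pools of the 10 stages came from different animals.

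**Figure D4:**
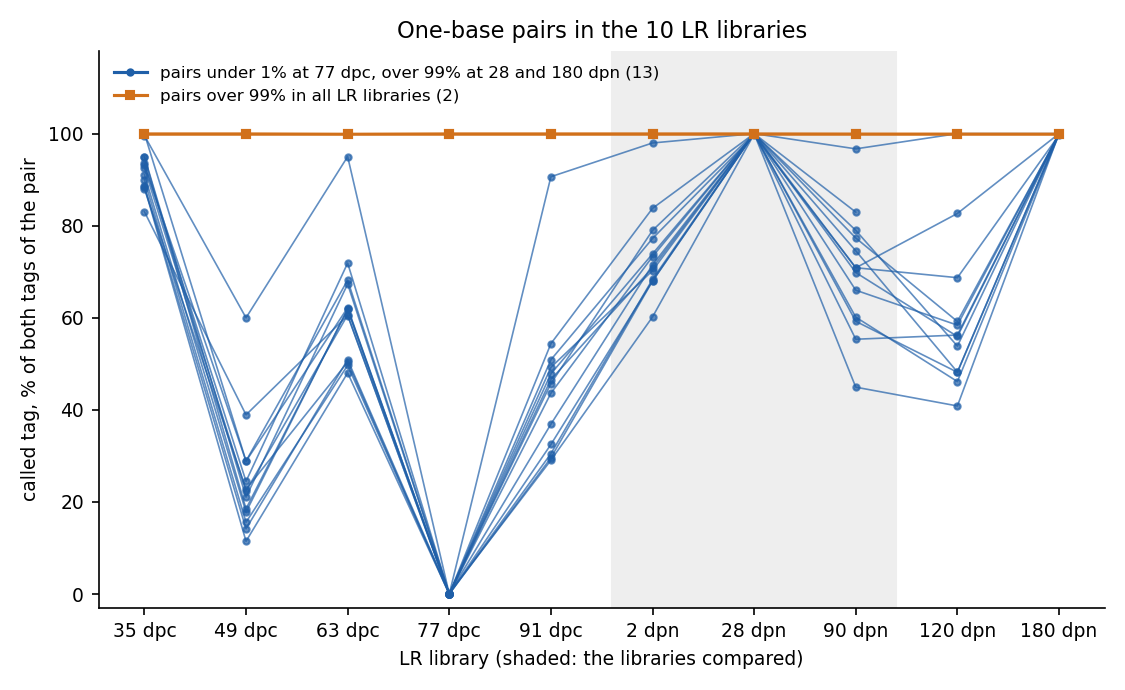
Share of the called tag in its one-base pair in each of the 10 LR libraries, in percent of both tags, each line 1 pair and the shaded stages those compared. The 13 blue pairs fall to 0.193% or less at 77 dpc and stand at 99.6% or more at 28 dpn, both by the choice of pairs. At the other stages they mostly rise and fall together, at differing heights, whereas the 2 orange pairs stay at 99.9% or more.

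Merging by substitution leaves tags that differ by an added or missing base, and 8 of the 145 kept tags (5.52%, against 0.879% of the 1706 tags with an unadjusted p below 0.05) had an opposite tag of that kind. Q1 and its partner are shown because both were called, each the other's opposite, and LT4 because it is among the named tags.
Q1: CATGtttttttttaagctttt
Q1, partner: CATGttttttttaagcttttc
LT4: CATGtgttttaagcaaaatgg
LT4, partner: CATGgtgttttaagcaaaatg
Q1, with a T run longer by 1 base, had 127, 166 and 115 counts in LR at 2, 28 and 90 dpn and 13, 11 and 7 in LT. The partner had none in LR and 253, 231 and 196 in LT. Q1 was 22.0-fold higher in LR (log2 fold change -4.45 ± 0.581 SE, edgeR adjusted p = 0.0156) and the partner stood at 10.51 on the log2 scale (edgeR adjusted p = 0.0160). At these stages the sum of both had a mean of 50.4 TPM in LR and 52.9 TPM in LT. The partner of LT4, which holds an added G after the CATG, had 328, 859 and 128 counts in LR and 345, 0 and 0 in LT, so the LT pool at 2 dpn held both tags and the other LT pools only LT4. The 2 tags of LT4 together came to 153 TPM in LR and 119 TPM in LT.

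Tags listed in both breeds were few among the kept tags, and all 8 of them are named Q1 to Q8 here after their values were seen. Beside Q1, 4 of them were listed in at least 5 of the 6 libraries.
Q2: CATGagaggaggtggggaccc
Q3: CATGttgactttgaggaagat
Q5: CATGggaaataaacctgaaaa
Q7: CATGcatgatcacttaagtca
Q2 had 47, 254 and 311 counts in LR at 2, 28 and 90 dpn and 7, 66 and 40 in LT. It increased with age in LR, and LT was lower at each stage but its 28 and 90 dpn values came near the 2 dpn value of LR, at 12.9 and 10.1 against 15.1 TPM (means 82.2 and 8.19 TPM, log2 fold change -3.26 ± 0.567 SE, edgeR adjusted p = 0.0308). Q5 had 0, 4 and 4 counts in LR and 153, 230 and 120 in LT, which is 34.0-fold higher in LT at 36.6 TPM ± 7.45 (SD, n = 3; edgeR adjusted p = 0.0236). Q3 had 3, 0 and 2 counts in LR and 61, 111 and 146 in LT and was 38.3-fold higher in LT at 24.1 TPM ± 11.8 (SD, n = 3; edgeR adjusted p = 0.0278). The LR values of Q3 and Q5 lie near the floor of 3 counts, so both folds have a loose base. Q7 was listed in all 6 libraries, with 69, 36 and 37 counts in LR and 14, 4 and 6 in LT, and was 9.45-fold higher in LR (17.2 TPM ± 4.88 against 1.82 ± 1.22, SD, n = 3; edgeR adjusted p = 0.0291). Q4, Q6 and Q8 were listed in a single library of the lower breed, with 3, 2 and 3 counts there. Like Q1, Q6 and Q8 had an opposite tag, so not all of these tags stand for a level alone. That of Q6, by an added or missing base, had 9, 10 and 8 counts in LR and 0 in LT (both tags together 3.57 TPM in LR and 15.6 in LT). Q8 was 1 base from P1, at 0.461% of its count. Its opposite tag, by C8T, had 10, 0 and 6 counts in LR and 35, 92 and 38 in LT (together 19.3 and 12.0 TPM).

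The libraries of the other stages, which took no part in the choice of tags, held the same differences for most of them. In all 4 fetal pairs (49, 63, 77 and 91 dpc) 342 of the 441 called tags (77.6%, Wilson interval 73.4 to 81.2%, which treats tags as independent) differed in the direction seen after birth, against 21.9% of all tags tested, and 1 tag differed in the opposite direction in all 4, against 35.1%. The share was 82.8% (120 of 145) for the tags kept after merging and 75.0% (222 of 296) for the others. At 35 dpc 89.0% of the 145 kept tags had the same direction, against 48.5% of all tags tested. At 120 and 180 dpn, where the LR libraries differed in digestion, 84.1% and 82.8% of the kept tags had it, against 44.1% and 44.4%. In a test of the fetal libraries alone, with 25109 of 50615 tags called (49.6%), 322 of the 441 passed the low-count filter and 305 of these were called in the same direction and 0 in the opposite one. With 49.6% of the tags called there a call by itself says little, and the called tags passed that filter mostly through the breed that listed them.

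Tags missing from one breed after birth were mostly missing from its other libraries too. Of the 80 kept tags listed only in LR, 66 (82.5%) were absent from the 7 other LT libraries, 43 were present in the 7 other LR libraries, and 34 met both conditions. Of the 57 kept tags listed only in LT, 40 (70.2%) were absent from the 7 other LR libraries, 48 were present in the 7 other LT libraries, and 32 met both. No tag of the 137 was listed in all 7 other libraries of the breed that lacked it. Of the tags that lost their call after merging, 84 of the 116 listed only in LR (72.4%) were likewise absent from the 7 other LT libraries. For those listed only in LT it was 83 of 128 (64.8%), so the absence was not particular to the kept tags. The share over all tested tags unlisted in one breed was not counted. LR1 was counted in each of the 10 LR libraries, with 216, 503, 766, 524 and 760 counts from 35 to 91 dpc and 37 and 49 counts at 120 and 180 dpn, and in no LT library. LT1, LT3, LT4 and LT5 were in each of the 10 LT libraries and in no LR library. The largest exceptions among the named tags were LT2 with 437 counts and LT8 with 269 counts in LR at 63 dpc, the LR library that listed most of the LT tags (22.8%). LR5 was counted mostly in young muscle of LR, with 968, 578 and 157 counts at 2, 28 and 90 dpn, 103 at 49 dpc, 2 at 63 dpc and none in its other libraries.

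**Figure D5:**
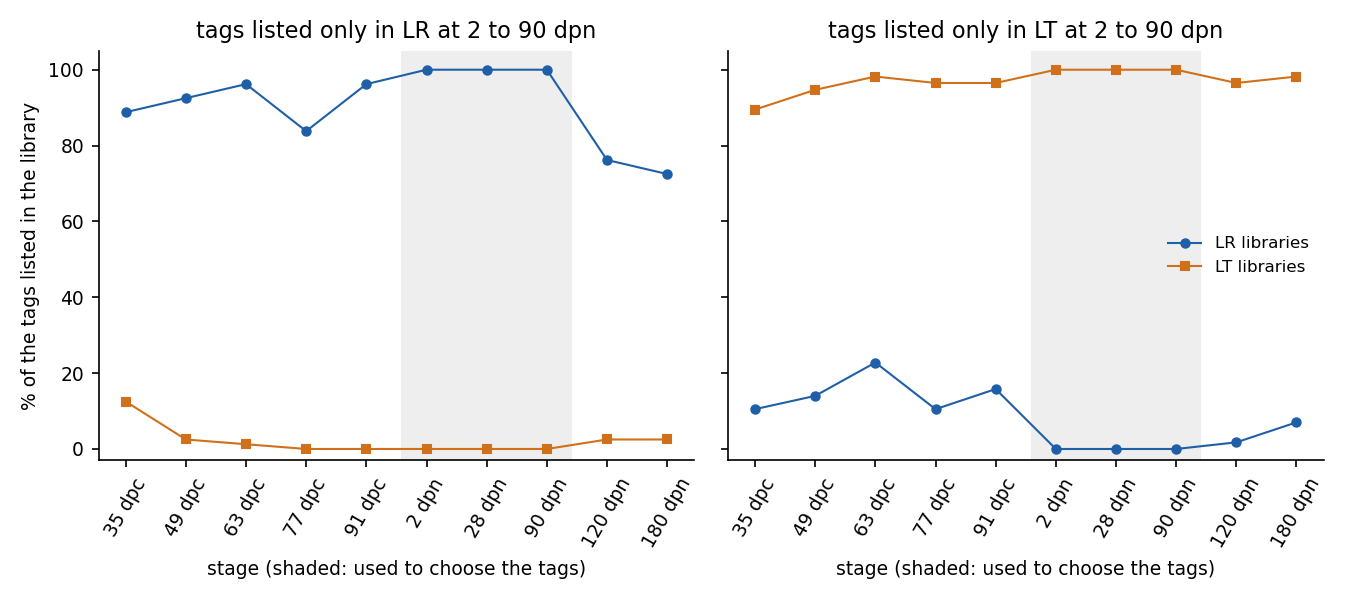
Percent of the kept tags listed only in LR (left, 80 tags) or only in LT (right, 57 tags) at 2 to 90 dpn that each of the 20 libraries listed, by stage, blue LR and orange LT, the shaded stages being those that chose the tags. In the other stages the breed that had the tags listed 72.5% to 98.2% of them and the other breed 0% to 22.8%.

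Whether the breed difference itself changed between fetal life and 2 to 90 dpn was tested with an interaction of breed and period over the 8 libraries of 49 to 91 dpc and these 6. Of 66453 tags tested, 2288 (3.44%) were called, 1322 with LT over LR higher after birth and 966 with it lower. The split turned to 802 and 1458 of 2260 when total clean tags set the scale, which moved the median of all tags from 0.139 to -0.143 on the log2 scale, so no direction is given. No tag was called by edgeR without the pair of 2, 28, 49, 63, 77 or 91 dpc, with 12629 to 15009 at an unadjusted p below 0.05 in place of 17278, and 9782 were called without that of 90 dpn. Of the 441 called tags 13 (2.95%) were called for the interaction, and of the 145 kept ones 7 (4.83%), beside 3.44% of all tags tested. In 308 of the 441 the interaction had an SE above 10 or none, and none of these was called, so the test bore on the other 133 tags and on 27 of the kept ones. The 13 and 7 calls came from these 133 and 27 tags. The matching number among all tags tested was not counted, so the shares cannot be set against 3.44%. Q1 was one of the 7, with a breed difference smaller after birth than before (interaction 2.49 ± 0.612 SE on the log2 scale, edgeR adjusted p = 0.0483). It had 716, 684, 877 and 810 counts in LR and 9, 6, 13 and 4 in LT from 49 to 91 dpc. Its partner had 2, 58, 6 and 175 counts in LR and 236, 125, 288 and 263 in LT at these stages. Both tags together were thus higher in LR at each of the fetal stages, whereas their means at 2 to 90 dpn were close.

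The bases of the tags showed small differences between the sets, given as a description. The 85 kept LR tags held 47.5% G and C on average and the 60 kept LT tags 40.1%, with 43.5% over all tags tested. The polyadenylation signal AATAAA stood in 5 of the 145 kept tags (3.45%) and in 1.97% of all tags tested, 1 in the LR tags and 4 in the LT tags. A further CATG was present in 3.45% against 3.40% and a run of 6 or more of 1 base in 4.14% against 3.70%. All were searched on the strand of the tag, over its 21 bases.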

How the data were processed

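Per the methods, the authors digested pooled cDNA with NlaIII and removed adaptor, empty, low-quality and one-copy tags. The authors deposited, per library, the raw count of each clean tag and the same count as TPM, rounded, which equalled count over total within 0.0050. Bowtie 0.12.3 and NCBI36 stand in the submitters' processing notes, and no mapping was used here. Counts were tested with edgeR 4.0.16 (R 4.3.3; TMM, filterByExpr on breed, stage as block, quasi-likelihood test, Benjamini-Hochberg adjustment). DESeq2 1.42.0 was an alternative, and tables were made in Python 3.11.15. Tests planned for genes and gene lists were run for tags only. The comparison, tags and lists were chosen with earlier results of these data known. Named tags were, per breed and among called tags alike in the 3 pairs, the 6 with the largest fold change and the 6 with the highest mean TPM that were kept after merging, and the 3 with the largest fold change that were lost. Same-stage libraries deviated together from the breed means (correlations 0.410, 0.276 and 0.202; other stages -0.330 to 0.128), so stage paired them. In simulated counts, run before use, the breed test recovered 13 of 100 4-fold and 72 of 100 16-fold changes, with 2 false calls. Of the 200 changed tags, 166 passed the filter. These counts had 1 dispersion of 0.25 and no difference between stages, while the 6 libraries had a fitted common dispersion of 0.286 and stages that differed. The interaction test recovered 1 and 35 of 100, with 3 false calls, so a tag without a call may still differ. Floors cover counting error at most, and PCR copies are not independent molecules. The Wilson interval is taken over tags and covers neither counting error nor the spread between libraries or animals.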

Additional observations from a re-analysis of the deposited data

Results flagged for a closer look

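The interaction of breed and period called 2288 tags whose breed difference was not the same at 2 to 90 dpn and at 49 to 91 dpc, a difference between groups. Of these, 1635 had a breed value in both periods, and 1564 of them had opposite signs, against 59.3% of the 23879 tags tested in both. At 49 to 91 dpc 2142 of the 2288 were called, where 49.6% of all tags tested were, and at 2 to 90 dpn 13, where 1.61% were. The tags were chosen by this very difference between the periods.

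Among the tags named here, Q1 was called for the same reason, with an interaction of 2.49 on the log2 scale and an edgeR adjusted p of 0.0483. Its log2 fold change was -6.81 at 49 to 91 dpc and -4.45 at 2 to 90 dpn, lower in LT in both periods.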

How the results depend on the processing

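With 3 stage pairs and no replicate of any pool, the counts of called tags moved with the settings, as follows. The 441 single tags and 146 merged tags were 781 and 305 with DESeq2, 1174 and 463 without the low-count filter, and 234 and 0 at the study's looser thresholds (p below 0.009, adjusted p below 0.02). At its stricter ones (p below 0.005, adjusted p below 0.01; chosen after seeing the data) both were 0 by edgeR, the lowest adjusted p being 0.0132 and 0.0257, with 1706 and 1110 tags at an unadjusted p below 0.05. With the 120 and 180 dpn pairs added 0 single tags were called by edgeR, and 950 had an unadjusted p below 0.05. Leaving out 1 stage pair gave 0 to 774 single tags, 0 to 172 merged tags and, for the interaction, 0 to 9782 tags. The interaction called 3839 tags after merging and 3544 without the stage (replicate) block. The block moved the single tags to 565 and the merged tags to 195 when dropped, under 1.5 times, and of the 29 named tags 1 lost its call. The share of called tags alike in all fetal pairs was 69.4% with DESeq2, 66.3% without the filter and 64.0% to 71.8% without a stage pair. All 29 named tags lost their call without the 28 dpn pair, and 1 did without 2 dpn. None did with DESeq2, with total clean tags as the scale, without the filter or without 90 dpn. Merging ended 5 calls and turned LTv3 to -0.05. The cause of these shifts was not tested. Depth limits tags under 53 summed counts, the lowest called. Results per gene were not run, because tags were not matched to genes.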
